A study of Mus musculus with 6 samples.

Results

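The *Traj* profiles of 3 V genes, *Trav19*, *Trav11* with its copy *Trav11d*, and *Trav9d-3*, were compared in WT BALB/c mice, using 3 of the 6 libraries of the series. A sequence entered if it was classed as productive, if its V assignment named the gene of its library and if it named only 1 *Traj* gene. This rule kept 534265 of the 2263651 sequences in the 3 WT lists, out of 3675237 in all 6. It kept 234415 of 426678 for *Trav19* (54.9%), 137708 of 249693 for *Trav11* (55.2%) and 162142 of 1587280 for *Trav9d-3* (10.2%). The primer of the last library amplified the *Trav9* family, and 16.7% of its sequences listed *Trav9d-3*. Every *Trav11* sequence listed *Trav11* and *Trav11d* together, so the copies could not be separated and are called *Trav11* below.

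All libraries came from pre-selection DP thymocytes, which express CD4 and CD8 and were sorted without surface TCRβ, CD69 or CD5, and so were taken before positive selection. RNA was copied to cDNA and amplified from a primer in the V gene to a primer in the constant region, according to the protocol, although the labels name the molecule as genomic DNA. The labels name no transgene or mutation for the WT BALB/c mice. The SKG mice carry a hypomorphic *Zap70* mutation, and their libraries, kept by the same rule (252048 sequences for *Trav19*, 152879 for *Trav11* and 103662 for *Trav9d-3*), serve below as another library of each V gene. How many mice a library holds is not given in the sources used here. The lists hold assignments of genes and no expression values, so the sorted cell type could not be checked against its markers.

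The TCR α chain is assembled in DP thymocytes by joining a *Trav* to a *Traj* segment. *Traj* numbers fall along the locus, so *Traj61* is nearest to the V genes and *Traj1* is nearest to the constant region. Joining starts at the V side of the *Traj* array, and while a cell remains unselected a further join can replace the first with a more upstream *Trav* and a more downstream *Traj*. RAG proteins cut at recombination signals beside each segment, which consist of a heptamer at the coding end, a spacer and a nonamer. *Trav11* joined to *Traj18* encodes the invariant chain of iNKT cells, and *Traj33* occurs in the invariant chain of MAIT cells.

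In the NCBIM37 mouse assembly the genes lie on the plus strand of chromosome 14. *Trav19* ends 309.2 kb before *Traj61*, and *Trav9d-3* ends 1234 kb before it. *Trav11* ends 635.1 kb and *Trav11d* 1330 kb before *Traj61*. Each of these V genes has 2 exons. The start of *Traj2* lies 62.83 kb beyond that of *Traj61*. A position was found for 59 of the 61 *Traj* numbers and for neither *Traj47* nor *Traj10*.

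The signals beside *Trav19* and both copies of *Trav11* are shown because these genes differ there. Each line runs 5′ to 3′ on the plus strand for 39 bases from the heptamer, which is in capitals, through the spacer of 23 bases and the nonamer.
Trav19 (chr14:54465503-54465541): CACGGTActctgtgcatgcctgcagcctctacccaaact
Trav11 (chr14:54139535-54139573): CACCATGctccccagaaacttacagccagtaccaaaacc
Trav11d (chr14:53444589-53444627): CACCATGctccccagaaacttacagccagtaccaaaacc

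The *Traj* segments shown next are the leading segments of each profile (*Traj56*, *Traj18*, *Traj32* and *Traj4*), *Traj27* as a segment high with *Trav11*, and the 6 segments that were almost missing with *Trav11*. Each line gives the 28 bases before the exon (nonamer, spacer of 12 bases and heptamer in capitals) and then the exon, 5′ to 3′ on the plus strand of NCBIM37. The assembly is that of another strain, and IMGT allele 02 was listed for at least 99.98% of the *Traj32* sequences, so single bases can differ in BALB/c.
Traj56 (chr14:54778910-54779000): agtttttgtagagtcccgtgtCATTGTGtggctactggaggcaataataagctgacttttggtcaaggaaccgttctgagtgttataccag
Traj32 (chr14:54805748-54805841): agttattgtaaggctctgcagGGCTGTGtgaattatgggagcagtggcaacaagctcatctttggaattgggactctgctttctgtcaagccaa
Traj27 (chr14:54811950-54812036): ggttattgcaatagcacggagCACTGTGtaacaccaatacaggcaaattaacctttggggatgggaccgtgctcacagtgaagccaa
Traj18 (chr14:54820424-54820517): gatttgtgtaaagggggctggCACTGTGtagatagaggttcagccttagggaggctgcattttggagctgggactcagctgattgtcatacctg
Traj4 (chr14:54835938-54836028): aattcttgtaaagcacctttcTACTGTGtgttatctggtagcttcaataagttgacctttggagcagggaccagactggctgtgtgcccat
Traj45 (chr14:54792475-54792565): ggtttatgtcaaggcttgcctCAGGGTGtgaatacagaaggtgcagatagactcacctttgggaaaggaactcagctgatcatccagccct
Traj44 (chr14:54793337-54793425): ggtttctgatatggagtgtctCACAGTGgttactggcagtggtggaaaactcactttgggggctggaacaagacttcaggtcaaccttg
Traj30 (chr14:54809513-54809599): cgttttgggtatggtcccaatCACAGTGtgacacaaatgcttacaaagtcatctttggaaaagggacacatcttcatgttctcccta
Traj22 (chr14:54816895-54816982): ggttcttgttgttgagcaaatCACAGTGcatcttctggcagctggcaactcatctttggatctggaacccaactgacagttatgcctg
Traj7 (chr14:54831117-54831203): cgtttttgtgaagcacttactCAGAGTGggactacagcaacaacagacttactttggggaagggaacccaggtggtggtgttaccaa
Traj5 (chr14:54833424-54833513): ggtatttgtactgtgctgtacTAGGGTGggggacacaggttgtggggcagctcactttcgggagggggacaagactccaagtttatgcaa

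*Trav19* used a narrow window at the V side of the array, and *Trav11* used a wide set of separate segments. *Trav9d-3* used segments along the whole array, more evenly than the other V genes. The mean *Traj* number was 48.8 ± 10.3 for *Trav19*, 30.6 ± 16.3 for *Trav11* and 26.8 ± 16.6 for *Trav9d-3* (SD over sequences). In distance, the mean segment lay 12.9 kb from *Traj61* for *Trav19*, 33.2 kb for *Trav11* and 36.8 kb for *Trav9d-3*. There was 1 library per V gene in WT, so none of these differences has a replicate check, sequences are not replicates, and no p-value is given over them.

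**Figure D1:**
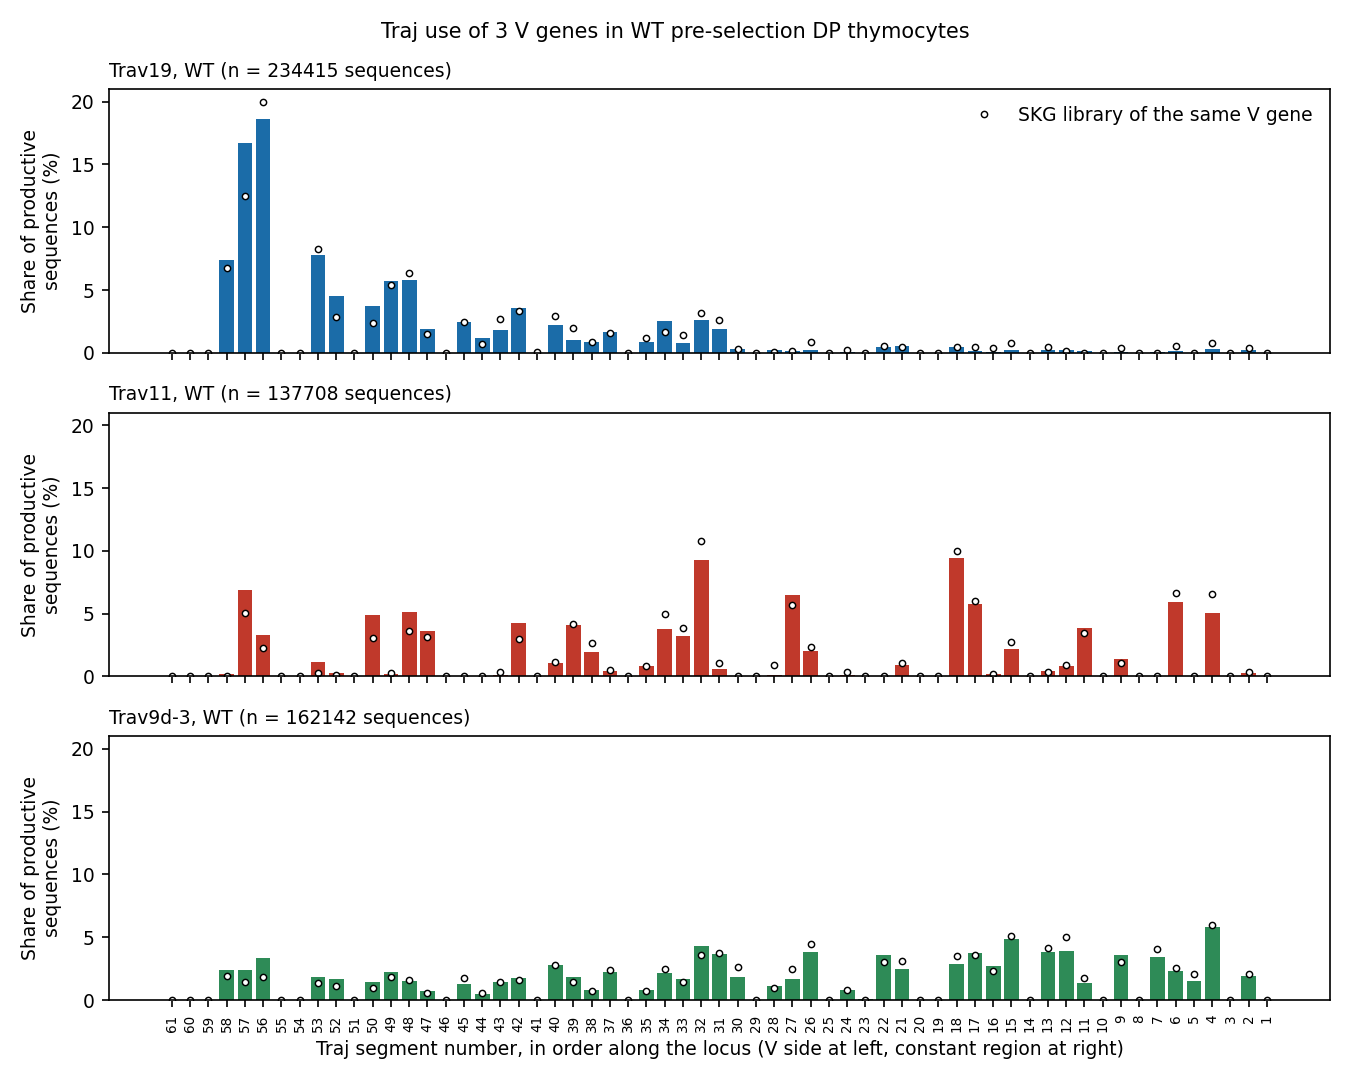
Share of productive sequences (%, linear axis) at each *Traj* number, in order along the locus, for *Trav19*, *Trav11* and *Trav9d-3* in WT (bars), with the SKG library of the same V gene as open circles; 1 library per bar or circle. Among the WT bars, *Trav19* is highest at *Traj56* (18.6%) and *Traj57* (16.7%), *Trav11* alternates between peaks up to 9.43% and gaps, and no *Trav9d-3* segment passes 5.79%.

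Errors are given in a pair of ways. The 95% Wilson intervals (CI) cover only the error of counting, and since no molecular identifiers were used, several sequences can stem from 1 molecule. A wider error multiplies the variance by the spread between the productive and the unproductive profile of the same library, which exceeded counting 205 times for *Trav19* over 38 segments, 138 times for *Trav11* over 35 and 261 times for *Trav9d-3* over 43. Errors of this kind are called scaled, and a true difference between the classes would enlarge them. The smallest share that 3 sequences can show was 0.00128% for *Trav19*, 0.00218% for *Trav11* and 0.00185% for *Trav9d-3*.

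*Trav19* exceeded *Trav9d-3* by 22.0 in mean *Traj* number (scaled 95% interval 20.5 to 23.4) and *Trav11* by 18.2 (17.0 to 19.3). *Trav11* exceeded *Trav9d-3* by 3.80 (2.16 to 5.45). The same differences were 22.0, 18.6 and 3.39 among the SKG libraries. Within a V gene the WT and SKG means differed by 1.84 for *Trav19*, 2.32 for *Trav11* and 1.90 for *Trav9d-3*. The gap between *Trav11* and *Trav9d-3* was larger than each of these differences but of the same order, and the gaps to *Trav19* were several times larger. Over all 6 libraries, a two-sided exact permutation test of the V gene labels within genotype gave p = 0.167, the smallest that its 36 arrangements allow, so this design cannot pass a threshold of 0.05.

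The window of use was shortest for *Trav19*. Its shortest run of neighbouring segments with at least 50% of the sequences went from *Traj58* to *Traj53*, which is 6 segments and 5.43 kb, and the run with at least 90% went from *Traj58* to *Traj34* over 27.5 kb. For *Trav11* the 50% run went from *Traj50* to *Traj26* over 27.0 kb, and the 90% run from *Traj57* to *Traj6* over 54.2 kb. For *Trav9d-3* they went from *Traj26* to *Traj4* over 21.9 kb and from *Traj52* to *Traj2* over 52.6 kb. The 50% windows of *Trav19* and *Trav9d-3* did not overlap. The 50% window of *Trav11* was not stable, since it went from *Traj39* to *Traj15* (24.5 kb) among unproductive WT sequences and from *Traj35* to *Traj15* (20.7 kb) in SKG. In SKG that of *Trav19* went from *Traj58* to *Traj52* over 8.10 kb and that of *Trav9d-3* from *Traj22* to *Traj2* over 20.7 kb, so only the short window of *Trav19* stood apart in length there. The windows of *Trav11* and *Trav9d-3* that hold 90% were of about the same length and differed mainly at their ends.

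**Figure D2:**
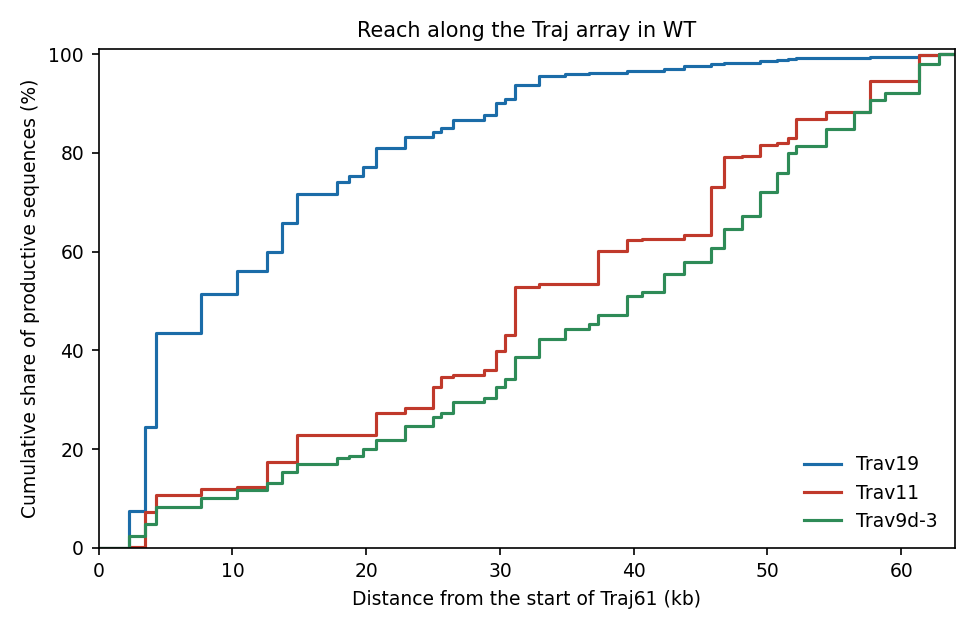
Cumulative share of productive WT sequences (%) against the distance of the *Traj* segment from the start of *Traj61* (kb), over segments with a position, 1 line per V gene. *Trav19* rises steeply at the V side, *Trav9d-3* rises almost evenly, and *Trav11* climbs in steps at the few segments it uses most.

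In blocks of the array, 55.0% of the *Trav19* sequences lay in *Traj61* to *Traj51* (scaled standard error 1.47 points), 26.2% in *Traj50* to *Traj41*, 14.4% in *Traj40* to *Traj31* and 4.33% in the 3 blocks from *Traj30* to *Traj1*. For *Trav11* the 6 blocks held 11.8%, 18.1%, 25.2%, 9.62%, 22.7% and 12.6%. For *Trav9d-3* they held 11.7%, 10.8%, 20.4%, 15.4%, 23.3% and 18.5%. Use thus fell along the array with *Trav19* and did not with the other V genes. *Trav11* and *Trav9d-3* had nearly the same share in the first block, and *Trav11* was lower in *Traj30* to *Traj21*. Across 41 segments with a position, the share and the distance from *Traj61* had a Spearman's rho of -0.89 for *Trav19*, -0.015 for *Trav11* and 0.38 for *Trav9d-3*, as a description, since the segments of a profile share 1 library.

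The profiles also differed in breadth. The effective number of segments, which is the number of equally used segments with the same Shannon entropy, was 17.2 for *Trav19* (scaled standard error 0.562), 22.9 for *Trav11* (0.528) and 37.1 for *Trav9d-3* (0.725). In SKG it was 19.3 for *Trav19* and 36.2 for *Trav9d-3*, with *Trav11* between them. The order of the 3 V genes was the same in both genotypes. With *Trav19*, 4 segments held 50% of the sequences and 17 held 90%. With *Trav11* it took 8 and 19 segments, and with *Trav9d-3* it took 13 and 33. Although its window was as wide as that of *Trav9d-3*, *Trav11* thus filled it with far fewer segments.

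The step from one used segment to the next showed this unevenness. Over 42 segments that reached 0.1% with at least 1 V gene, the median fold between neighbours was 10.8 with *Trav11*, 1.85 with *Trav19* and 1.63 with *Trav9d-3*. In SKG, over the same segments chosen in WT, it was 7.72, 2.17 and 1.76. Here 0.5 was added to each count. The 6 segments almost missing with *Trav11* entered this set only through another V gene, so large steps with *Trav11* were in part built in. Over this set, *Trav11* had the largest median step in both genotypes.

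The leading segments differed between the V genes. With *Trav19* they were *Traj56* (18.6%), *Traj57* (16.7%), *Traj53* (7.77%), *Traj58* (7.38%) and *Traj48* (5.82%), all near the V genes. With *Trav11* they were *Traj18* (9.43%), *Traj32* (9.24%), *Traj57* (6.87%), *Traj27* (6.45%) and *Traj6* (5.92%), spread over the array. With *Trav9d-3* they were *Traj4* (5.79%), *Traj15* (4.86%), *Traj32* (4.34%), *Traj12* (3.92%) and *Traj13* (3.81%), 4 of them in the part of the array nearest to the constant region. *Traj57* and *Traj32* were the only segments on more than 1 of these lists.

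*Traj18*, the iNKT segment, held 0.452% of the *Trav19* sequences, 9.43% of the *Trav11* sequences (scaled standard error 0.923 points) and 2.84% of the *Trav9d-3* sequences (0.666). In SKG these shares were 0.436%, 9.95% and 3.52%, so the order of the V genes was the same. *Traj33*, the MAIT segment, held 0.779%, 3.22% and 1.66% in WT (1827, 4429 and 2686 sequences) and 1.40%, 3.86% and 1.43% in SKG. The scaled standard errors of the WT shares were 0.26, 0.558 and 0.512 points. *Traj33* was highest with *Trav11* in both genotypes. The gap between *Trav19* and *Trav9d-3* was of the order of these errors in WT and small in SKG.

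The V genes were less like each other than any of them was like itself in another set of sequences. The shared use, the sum over segments of the lower of both shares, was 40.6% between *Trav19* and *Trav9d-3* (scaled standard error 2.05 points), 40.5% between *Trav19* and *Trav11* (1.74) and 52.2% between *Trav11* and *Trav9d-3* (2.26). Between productive and unproductive sequences of the same library it was 88.8% for *Trav19*, 89.6% for *Trav11* and 88.0% for *Trav9d-3*. Between the WT and SKG libraries of the same V gene it was 89.1%, 89.5% and 91.4%. Among the SKG libraries the V genes shared 41.5%, 37.9% and 52.5%, in the same order as above.

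Of the 61 numbers, 43 had at least 3 sequences with at least 1 V gene and 37 had at least 3 with each. The other 18, among them *Traj61*, *Traj60*, *Traj59*, *Traj55* and *Traj54*, had under 3 sequences with all V genes. At a level of 1% or more, 9 segments were shared by all V genes (*Traj57*, *Traj56*, *Traj53*, *Traj50*, *Traj48*, *Traj42*, *Traj40*, *Traj34* and *Traj32*), and none of them lay beyond *Traj32*. At that level *Traj44* was used with *Trav19* alone, *Traj38* with *Trav11* alone and 10 segments with *Trav9d-3* alone, which were *Traj30*, *Traj28*, *Traj22*, *Traj21*, *Traj16*, *Traj13*, *Traj12*, *Traj7*, *Traj5* and *Traj2*. These lists depend on the limit, since *Traj38* held 0.851% with *Trav19* and 0.834% with *Trav9d-3*. Not all of them held in SKG, where *Traj44* had 0.728% with *Trav19*, *Traj28* 0.924% with *Trav9d-3* and *Traj21* 1.08% with *Trav11*. The shared list changed there too, since *Traj53* had 0.296% with *Trav11* and *Traj50* 0.982% with *Trav9d-3*. *Traj31*, which lies beyond *Traj32*, reached 1% in SKG with *Trav19* (2.61%), *Trav11* (1.04%) and *Trav9d-3* (3.75%).

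Segments were also called when their shares differed at least 4-fold, among those with at least 10 sequences over both libraries and with 0.5 added to each count. The highest and lowest ratios named for each pair are those among segments with at least 1% in either library. Between *Trav19* and *Trav9d-3*, 3 of 43 segments (6.98%) were higher with *Trav19* and 21 (48.8%) were higher with *Trav9d-3*. Those 3 were *Traj57* (6.96-fold, 16.7% against 2.40%), *Traj56* (5.57-fold) and *Traj53* (4.15-fold). Their scaled standard errors in log2 were 0.39, 0.33 and 0.45, so *Traj53* lay within its error of the 4-fold limit. At the other end, *Traj16* had 104 *Trav19* sequences and a log2 ratio of -5.94, and *Traj7* had 156 and -5.68 (scaled standard errors 2.05 and 1.68). *Traj5* had 1 *Trav19* sequence, which is 0.000427% (95% CI 0.000075 to 0.00242), against 1.49% of the *Trav9d-3* sequences.

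Between *Trav19* and *Trav11*, 11 of 41 segments (26.8%) were higher with *Trav19* and 12 (29.3%) were higher with *Trav11*. *Traj45* held 2.42% and *Traj44* 1.21% of the *Trav19* sequences, and neither had a *Trav11* sequence. Set against a share of 3 sequences in the *Trav11* library, the *Trav19* share was 1110-fold higher at *Traj45* and 556-fold higher at *Traj44*. These folds rest on counting alone, with a scaled standard error of 23.93 in log2 for each. Among the segments at 1% or more, *Traj58* followed with a log2 ratio of 5.18 (scaled standard error 1.02). *Traj27* (-5.48), *Traj6* (-5.17) and *Traj17* (-5.02) were lowest with *Trav19* against *Trav11*, and all 3 lie in the distal part of the array. Their scaled standard errors were 1.14, 1.07 and 1.03.

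Between *Trav11* and *Trav9d-3*, 1 of 43 segments (2.33%) was higher with *Trav11* and 19 (44.2%) were higher with *Trav9d-3*. The 1 segment was *Traj47*, with 3.63% against 0.736% (4.94-fold), followed by *Traj27* (3.80-fold) and *Traj48* (3.45-fold), which stayed below 4-fold. Their scaled standard errors in log2 were 0.72, 0.48 and 0.52, so each of them lay within its error of the 4-fold limit. Which of them pass that limit is therefore not firm. *Traj7*, *Traj5* and *Traj45* had no *Trav11* sequence. Set against a share of 3 sequences, *Trav11* was 1570-fold lower at *Traj7*, 684-fold lower at *Traj5* and 595-fold lower at *Traj45*. These folds also rest on counting alone, with a scaled standard error of 23.93 in log2 for each. Among unproductive SKG *Trav11* sequences *Traj45* had 117, so the folds are no firm bounds. The 3 comparisons share libraries in pairs, so their calls are not independent of each other.

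With *Trav11*, 6 segments held under 0.05% of the sequences although another V gene used them at 0.5% or more. They were *Traj45*, *Traj44*, *Traj30*, *Traj22*, *Traj7* and *Traj5*, with 0, 0, 1, 4, 0 and 0 of 137708 productive sequences. By counting alone, a count of 0 allows a share of up to 0.00218% when 3 sequences are taken as the floor, and the Wilson interval reaches 0.00279%. With *Trav9d-3* the same segments had 2101, 757, 2996, 5749, 5551 and 2415 of 162142, the most being 3.55% at *Traj22*. With *Trav19*, 2 segments were below the same limit, *Traj16* (0.0444%) and *Traj5* (0.000427%), and with *Trav9d-3* there were 0. *Traj16* lay just below it and was above it in SKG, with 926 *Trav19* sequences (0.367%), while *Traj5* had 0 there.

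The rare segments of *Trav11* were rare in its other sets of sequences too, with exceptions. The SKG library had 1, 0, 0, 0, 0 and 0 productive sequences at these 6 segments among 152879. Among unproductive WT sequences *Traj22* had 224 and the other 5 had 0. Among unproductive SKG sequences *Traj45* had 117, *Traj22* had 96 and *Traj30* had 1. How many rearrangements these sequences stand for was not analysed here.

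Thinned to the depth of the *Trav11* library, the expected number of segments seen was 42.6 with *Trav19* and 43.0 with *Trav9d-3*, against 39 with *Trav11*. *Traj23* showed how the productive class can hide a segment. With *Trav9d-3* it had 135 productive and 4697 unproductive sequences, so 2.79% of its sequences were productive. With *Trav19* it had 8 and 976, and with *Trav11* it had 0 of either class.

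The segments that *Trav11* passed over differed from those it used at the base in position 4 of the heptamer, counted from the coding end. This was noticed after the values were seen and is a description with no test. The letters TGTG directly before the exon on the plus strand (CACA on the minus strand, the first letters of the consensus heptamer) stood at 31 of the 59 positioned segments (52.5%). Of the 43 segments with at least 100 productive sequences with some V gene, 27 had TGTG. A further 14 had GTG behind another letter, and these were *Traj58*, *Traj52*, *Traj49*, *Traj45*, *Traj44*, *Traj37*, *Traj30*, *Traj24*, *Traj23*, *Traj22*, *Traj13*, *Traj7*, *Traj5* and *Traj2*. *Traj47* was left out for want of a position and *Traj57* because 2 annotations give it different lengths and the letters depend on its start. The 2 left-out segments held 18.6% of the *Trav19*, 10.5% of the *Trav11* and 3.14% of the *Trav9d-3* sequences.

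The 14 segments without TGTG held 1.94% of the *Trav11* sequences (95% CI 1.87 to 2.01), 27.2% of the *Trav9d-3* sequences and 24.3% of the *Trav19* sequences. The highest of them with *Trav11* was *Traj13* at 0.454%, and their median was 0.0719%. The 27 segments with TGTG held 87.6% of the *Trav11* sequences with a median of 3.22%, and only *Traj43*, *Traj28* and *Traj16* of them lay below *Traj13*. The *Trav11* share of the 14 segments was 2.05% in the SKG library, 2.70% among unproductive WT sequences and 3.13% among unproductive SKG sequences. If *Traj57* is counted with the segments without TGTG, it is 8.81%.

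**Figure D3:**
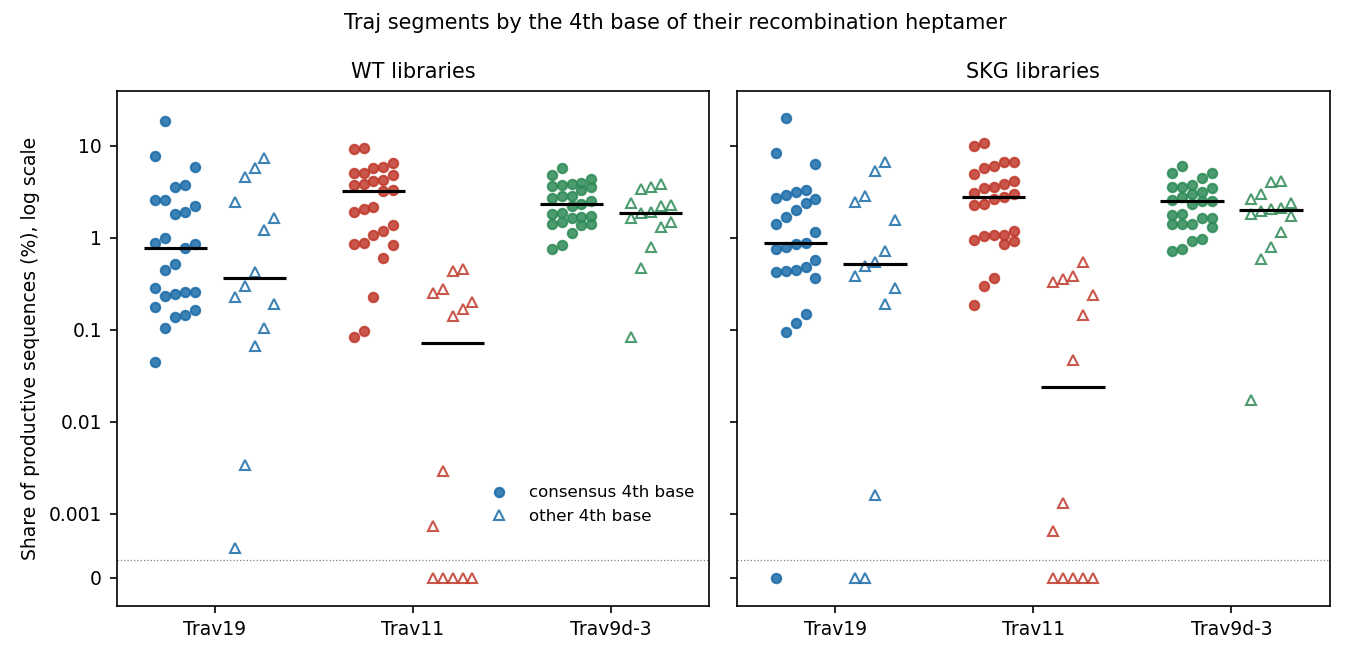
Share of productive sequences (%, log axis, shares of 0 drawn on the line marked 0) of each segment with the consensus base at position 4 of the heptamer (filled circles, 27 segments) or another (open triangles, 14 segments) for the 3 V genes in WT (left) and SKG (right); horizontal bars are medians. With *Trav11* every triangle in WT lies at or below 0.454%, while with *Trav9d-3* the triangles overlap the circles.

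Relative to *Trav9d-3*, the *Trav11* share had a median log2 ratio of 0.14 over the 27 segments with TGTG and of -5.77 over the 14 without, with 0.5 added to each count. All 14 were below -2, against 5 of the 27. Of the 14, 7 held under 0.05% of the *Trav11* sequences and entered only through another V gene. Low ratios were thus built in for these 7. The rest of the 14 had enough *Trav11* sequences to enter through *Trav11* too, and they were also below -2. The contrast between the classes appeared in each stretch of the array. The medians with and without TGTG were 0.63 and -3.70 from *Traj58* to *Traj41* and 0.46 and -7.85 from *Traj40* to *Traj21*. From *Traj20* to *Traj1* they were -0.20 and -7.54. The classes were noticed from these same *Trav11* shares, so the split by stretch is no independent check of them. For *Trav19* against *Trav9d-3* the medians were -1.09 and -2.78 over the array, 1.69 and 1.38 from *Traj58* to *Traj41*, -0.92 and -2.92 from *Traj40* to *Traj21*, and -4.31 and -5.01 from *Traj20* to *Traj1*. With *Trav19* the segments without TGTG were thus also lower in each stretch by the median, by less than with *Trav11*. From *Traj58* to *Traj41* all 5 segments without TGTG were higher with *Trav19* than with *Trav9d-3* and lower with *Trav11* than with *Trav9d-3*.

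The heptamers of the V genes printed above read CACCATG for *Trav11* and *Trav11d* and CACGGTA for *Trav19*. Both differed at letter 4 from CACAGTG, the consensus heptamer, and each differed at a further letter, which was not the same in both. The signals are lost from the cDNA and were read from the assembly. Whether they have a part in the profiles was not tested.

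Other genes amplified by the same primers give further points on V position. Among productive sequences of the WT *Trav9* library that listed a single V gene, the mean *Traj* number was 42.3 for *Trav9-4* (478.4 kb from *Traj61*), 37.1 for *Trav9-2* (563.5 kb) and 33.7 ± 14.8 for *Trav9-1* (666.4 kb, 715 sequences). In the upstream group it was 24.1 for *Trav9d-4* (1171 kb), 26.8 for *Trav9d-3* (1234 kb) and 27.5 for *Trav9d-2* (1262 kb). The mean thus fell with distance among the nearer genes, and in the upstream group *Trav9d-4*, the nearest of them, had the lowest. Over 8 V genes with at least 500 such sequences, Spearman's rho of the mean with the distance was -0.79, as a description. *Trav11* was left out for its 2 places. Of the 8 genes, 6 came from 1 library. The others were *Trav19* and *Trav4d-3*, a gene that the *Trav19* library held (2176 sequences) but was not made for. *Trav9-3*, with 237698 sequences and a mean of 37.6, has no position here and is not among the 8. *Trav11* at 30.6 lay below *Trav9-1*, which lies at nearly the distance of *Trav11*, and above the upstream genes at 1171 to 1262 kb. Those genes are nearer to *Traj61* than *Trav11d* is. *Trav9d-1* (1362 kb), the *Trav9* gene closest to *Trav11d*, had too few sequences for this comparison. Its mean was 29.4 over 212 sequences of every class, which fell on 22 segments. The 95% counting interval (half-width 2.2) covered 30.6 and also the 27.5 of *Trav9d-2*. What share of the *Trav11* sequences came from either copy cannot be told apart.

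**Figure D4:**
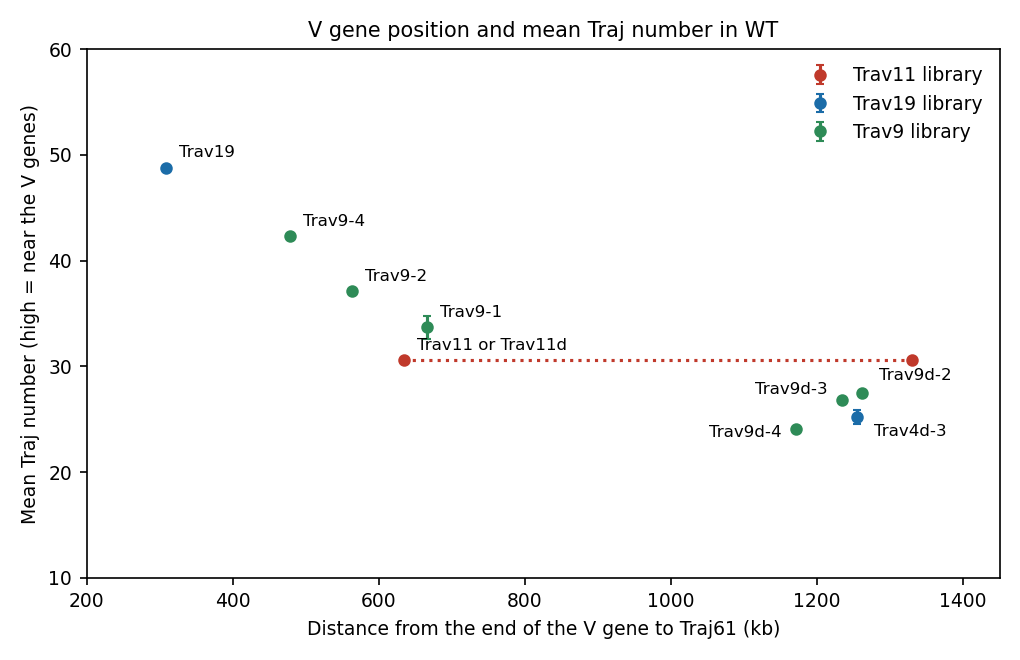
Mean *Traj* number of productive WT sequences against the distance from the end of the V gene to *Traj61* (kb), 1 point per V gene with at least 500 sequences and a position (so without *Trav9-3*), coloured by library; bars are 95% counting intervals. *Trav11* is drawn at both places of its copies, joined by a dotted line at 30.6.

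Segments without TGTG held between 25.3% (*Trav9-1*) and 30.7% (*Trav9-4*) of the productive sequences of the *Trav9* genes with at least 500 such sequences. The low share with *Trav11* was not met at these genes. They all come from the same library and primer, so position, gene family and amplification cannot be told apart.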

How the data were processed

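Amplicons of *Trav* to constant region cDNA from sorted pre-selection DP thymocytes were sequenced by the authors, with 1 library per V gene and genotype. According to the methods, the authors obtained clonal sequences from the read pairs with MiXCR, cut off primers with cutadapt 1.13, kept identical sequences once and used IMGT/HighV-QUEST to name the V and J genes. Each deposited row holds an identifier, the functionality class and both gene assignments of a sequence. Identifiers only name sequences, and 0 columns of per-sample values were left unused. Keeping identical sequences once levels abundant rearrangements and retains copies that differ by an error, so a share of sequences is neither a share of reads nor of cells. The processing notes name the mm10 build, and positions here are from the GENCODE annotation of NCBIM37, with older names matched through the RefSeq table of GRCm38.p6, whose coordinates were not used.

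Sequences were grouped by the labels and counted per *Traj* segment. Named segments are the 5 most used with each V gene, the ends of the 50% and 90% windows, for each pair of V genes the 3 highest and 3 lowest ratios among segments with at least 1% in either library, segments under 0.05% with one V gene and at 0.5% or more with another, up to 5 of those not used, and *Traj18* and *Traj33*. Other segments named for their class were chosen after their values were seen. The members and lists were chosen with earlier results of these data known. No test was run over sequences. Alternatives were other functionality classes, stricter V filters, the first-listed *Traj* gene, another added count and no minimum count. The recombination signal of *Trav9d-3* is not reported here. Functions were tested on simulated data. Python 3.11.15, numpy 2.4.6, pandas 2.3.3, scipy 1.17.1, pysam 0.24.0 and matplotlib 3.10.9 were used.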

Additional observations from a re-analysis of the deposited data

Results flagged for a closer look

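Sequences of V genes that the libraries were not made for drew attention, because they lie outside the comparison and numbered far above the 3 sequences taken as the floor. The WT *Trav19* library held 2176 productive sequences of *Trav4d-3*, which lies 1255 kb before *Traj61*. Their mean *Traj* number was 25.2 ± 16.0 (SD over sequences), and 71.2% (95% CI 69.3 to 73.1) carried *Traj1* to *Traj30*, against 4.33% of the *Trav19* sequences of the same library. They spread over 29 segments.

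The WT *Trav11* library held 224 sequences of *Trav8d-2* of every class, 1112 kb before *Traj61*. Of these, 52.2% (95% CI 45.7 to 58.7) lay in segments without TGTG. The 224 sequences fell on 17 segments, with an effective number of 10.2. The interval covers counting alone, and how many rearrangements the sequences stand for was not analysed. *Traj45* had 6 and *Traj5* had 21 of the 224, while neither had any of the 249466 *Trav11* sequences of every class. The other 4 segments that were rare with *Trav11* (*Traj44*, *Traj30*, *Traj22* and *Traj7*) had 0 of the 224 too, which by counting alone allows a share of up to 1.34%. How these sequences came into the libraries was not tested.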

How the results depend on the processing

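Of 66 alternative values for 12 results, 51 moved by less than their counting error or, for counts of segments past 4-fold, stayed within 1.5 times, 15 moved further and 0 reversed. Every one of the planned values that moved came from another functionality class. Unproductive sequences alone gave differences in mean *Traj* number of 22.5 (*Trav19* minus *Trav9d-3*), 18.5 (*Trav19* minus *Trav11*) and 4.01 (*Trav11* minus *Trav9d-3*), effective numbers of 16.0 for *Trav19* and 37.3 for *Trav9d-3*, and a shared use of 39.1% for *Trav19* with *Trav11* and 52.9% for *Trav11* with *Trav9d-3*. Sequences of every class gave 22.2 and 18.3 for the differences of *Trav19* from *Trav9d-3* and *Trav11*, effective numbers of 16.8, 23.1 and 38.0 for *Trav19*, *Trav11* and *Trav9d-3*, and a shared use of 41.1%, 40.1% and 52.8% for *Trav19* with *Trav9d-3*, *Trav19* with *Trav11* and *Trav11* with *Trav9d-3*. The cause was not tested. The values for the heptamer letters, added after seeing the data, stand beside that result. Sequences listing *Trav11* without *Trav11d* were not run, because there were 0. No paired analysis was possible because each group holds 1 library. The permutation test over the 6 libraries already kept the V gene labels within genotype. With 1 library per V gene, differences between V genes cannot be told apart from differences between amplifications, and the intervals cover counting error or the spread within a library.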
